A study of Mus musculus with 10 samples.

Results

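The colony-stimulating factors and their receptors were followed by symbol through both expression tables of the study. They comprise 10 of the 48897 rows of each table, 5 ligands (Csf1, Il34, Csf2, Csf3 and Kitl) and 5 receptors or receptor chains (Csf1r, Csf2ra, Csf2rb, Csf3r and Kit), and all 10 were found. RNA-seq was performed on prostate epithelium sorted as EpCAM+ CD45- cells from 3-month-old C57BL/6 mice, 3 controls (control libraries A, B and C) and 3 that were also Arid1aPC-/- (Arid1a KO libraries A, B and C). The PC deletions were driven by Probasin-Cre, which is active in prostate epithelium, and both groups shared a further deletion of this kind, so that the controls are not wild type. The second system was Myc-CaP, a prostate cancer line from a c-Myc transgenic mouse of the FVB strain, with 2 libraries carrying an empty vector (EV) and 2 labelled Arid1a KO, made with a lentiviral guide RNA vector. The labels give the cell line as the source of these 4 libraries and do not settle whether the cells came from culture or from tumours, nor whether the 2 libraries of a group are separate cultures, so p-values there measure only the spread between those libraries.

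These cytokines are secreted or membrane-bound proteins that keep blood cells alive and drive their growth and maturation. Csf1 (M-CSF) and Il34 both bind Csf1r, a receptor tyrosine kinase of monocytes and macrophages. Csf2 (GM-CSF) binds a complex of Csf2ra and the signalling chain Csf2rb, which also serves the receptors for IL-3 and IL-5, while Csf3 (G-CSF) binds Csf3r and drives the production of neutrophils. Kitl (stem cell factor) binds Kit, a receptor tyrosine kinase of mast cells, blood progenitors, germ cells and melanocytes. Epithelial and stromal cells can make the ligands, and the receptors are carried chiefly by leukocytes.

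The promoters of 4 members are shown because the transcripts of Csf2ra, Csf3r and Csf1 were higher and that of Kitl lower in the epithelium labelled Arid1a KO, as described further on. Each is the 300-base window of RefSeq (GRCm38.p6), from 250 bases before to 50 bases after the annotated start, 5′ to 3′ on the strand of the gene. Windows were found for 6 of the 9 members looked up. Csf2ra is at chr19:61228369-61228668 (minus strand), Csf3r at chr4:126024409-126024708 (plus strand), Csf1 at chr3:107760420-107760719 (minus strand) and Kitl at chr10:100015571-100015870 (plus strand). Capitals mark matches, on either strand, to the letters of a PU box (GAGGAA, read by the myeloid factor PU.1) or to the NF-kB consensus.
Csf2ra: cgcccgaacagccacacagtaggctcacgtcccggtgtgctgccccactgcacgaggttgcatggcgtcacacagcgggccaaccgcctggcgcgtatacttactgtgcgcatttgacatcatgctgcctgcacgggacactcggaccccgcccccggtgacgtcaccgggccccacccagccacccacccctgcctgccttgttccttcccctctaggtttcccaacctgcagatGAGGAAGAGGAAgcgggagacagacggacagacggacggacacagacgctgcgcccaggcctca
Csf3r: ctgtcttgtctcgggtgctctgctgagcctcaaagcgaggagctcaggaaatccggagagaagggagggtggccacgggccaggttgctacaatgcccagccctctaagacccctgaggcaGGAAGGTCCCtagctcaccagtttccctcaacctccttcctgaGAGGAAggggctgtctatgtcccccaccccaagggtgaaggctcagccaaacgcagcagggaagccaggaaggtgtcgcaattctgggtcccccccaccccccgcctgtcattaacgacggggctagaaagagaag
Csf1: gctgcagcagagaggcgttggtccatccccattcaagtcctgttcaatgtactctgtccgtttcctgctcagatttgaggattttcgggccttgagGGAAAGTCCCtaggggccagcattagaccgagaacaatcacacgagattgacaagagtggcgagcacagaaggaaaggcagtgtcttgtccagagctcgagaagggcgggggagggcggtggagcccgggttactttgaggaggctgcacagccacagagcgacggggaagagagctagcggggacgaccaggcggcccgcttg
Kitl: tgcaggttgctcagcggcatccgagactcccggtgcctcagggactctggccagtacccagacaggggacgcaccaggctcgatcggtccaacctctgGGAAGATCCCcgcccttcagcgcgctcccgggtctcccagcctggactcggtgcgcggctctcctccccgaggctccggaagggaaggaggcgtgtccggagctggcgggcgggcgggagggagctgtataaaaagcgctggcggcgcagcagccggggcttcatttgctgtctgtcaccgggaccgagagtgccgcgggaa
The Csf2ra window held 2 adjoining PU box matches just upstream of the start, at positions -14 to -9 and -8 to -3. That of Csf3r held 1 PU box match, at -86 to -81, and 1 NF-kB match on the opposite strand, at -129 to -120. Csf1 and Kitl each held 1 NF-kB match, at -154 to -145 and -152 to -143, on the opposite strand, and no PU box. Kit, not printed here, has 2 annotated windows, each with 1 PU box match, at -223 to -218 and -227 to -222. Neither the RUNX letters TGTGGT nor the E-box letters CACGTG were present in any of these windows or in that of Csf2, which held no match at all. Among 32851 RefSeq windows of the same length, a PU box was present in 28.3%, an NF-kB match in 8.46%, the RUNX letters in 16.8% and the E-box letters in 7.15%. No 2 of these motifs overlapped in the windows printed. These are matches of letters and not measured binding.

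Whole reads could be recovered from the steps between the deposited values, which gives the depth. The totals behind the epithelium RPKM were 28800759 to 36316939 reads. In the Myc-CaP libraries 18382080 to 20647567 reads in genes were recovered, from 96.6% of rows, so these are lower limits. Arid1a was not lower in the epithelium libraries labelled Arid1a KO (30.2 ± 1.23 RPKM against 25.4 ± 3.13 RPKM in the controls, SD, n = 3 each, limma adjusted p = 0.0540). A value for the whole gene cannot show whether some exons were deleted, so it cannot settle the deletion in either direction. Every direction in the epithelium is given for the libraries as labelled. In Myc-CaP cells Arid1a fell from 60.7 ± 0.36 to 39.9 ± 0.58 TPM (n = 2 each, SD, limma adjusted p = 0.0102). The epithelial marker Epcam was abundant in the sorted cells, at 304 ± 40.9 RPKM in the controls and lower, at 201 ± 21.5 RPKM, in the libraries labelled Arid1a KO (SD, n = 3 each; limma adjusted p = 0.00409). Ptprc, which encodes the CD45 removed by the sort, was present at 28.6 ± 2.30 RPKM in the controls and 57.3 ± 0.98 RPKM in the libraries labelled Arid1a KO. Of 10 leukocyte markers, 9 were higher and 1, Cd52, was lower in the latter at a limma adjusted p under 0.05. Over all genes tested, 27.5% were higher and 29.6% lower by that test. The summed level of the 10 markers was 968 to 990 RPKM in the controls and 1200 to 1310 RPKM in the libraries labelled Arid1a KO. In bulk libraries, fewer cells of a type and less RNA per cell cannot be told apart.

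In the epithelium, 8 of the 10 members passed the test, an adjusted limma p under 0.05, of which 6 rose and 2 fell with the Arid1a KO label. Csf1, Csf3, Csf1r, Csf2ra, Csf2rb and Csf3r were higher, Il34 and Kitl were lower, and Csf2 and Kit did not pass. Over all 16275 genes tested, 57.1% passed, 27.5% as higher and 29.6% as lower, so that a count of 8 of 10 stands against a high background. By the thresholds of the study, an unadjusted p under 0.05 with a 1.5-fold or larger change, 7 members passed (6 higher and 1 lower) against 24.8% of all genes (11.8% higher and 13.0% lower). Here the p-value and change are from limma on log2(value + 1), whereas the study used DEGseq. With a pseudocount of 0.1, again 7 members passed, but 2567 genes passed as higher and 2856 as lower, against 1917 and 2120 in the main fit. No library of one group reached the range of the other for 8 members (6 higher and 2 lower) and for 66.7% of all genes (32.4% higher and 34.4% lower). The median log2 fold change over all genes was -0.03, and 48.1% of the calls were higher. After rescaling to equal sums these became 0.11 and 64.6%. All 8 calls kept their direction there, and Kit was called as well.

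**Figure D1:**
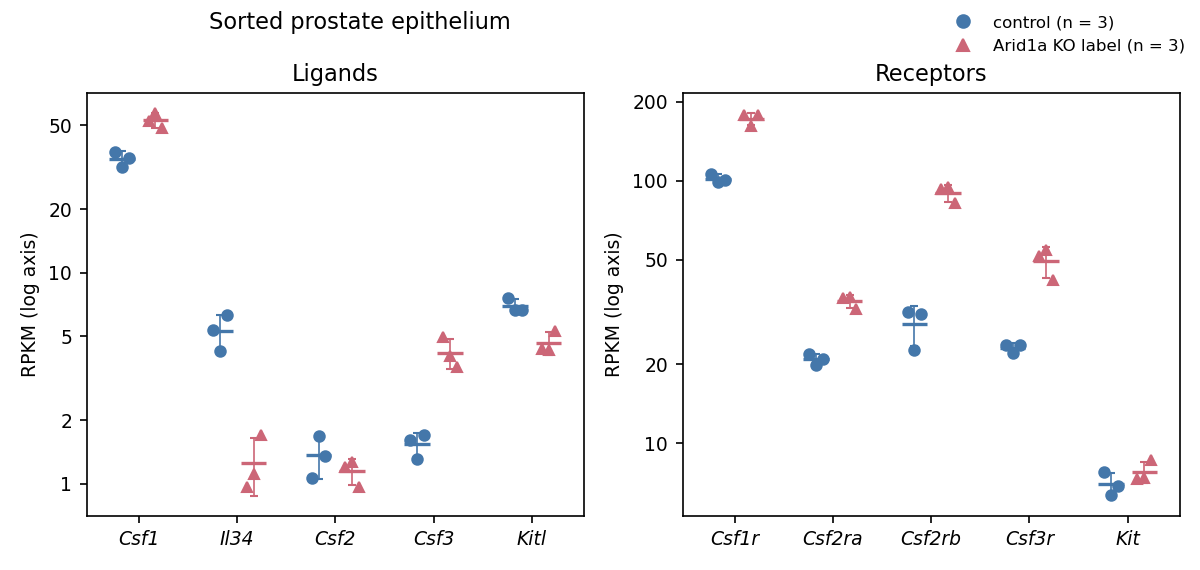
Levels of the ligands (left) and receptors (right) in sorted prostate epithelium, in RPKM on a log axis, with 1 point per library, the mean as a line and the SD as a bar (n = 3 per group). Control and Arid1a KO points are separate for Csf1, Il34, Csf3 and Kitl and for Csf1r, Csf2ra, Csf2rb and Csf3r, and overlap for Csf2 and Kit.

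Csf1 (chromosome 3, 107741048 to 107760469 on GRCm38), the main growth factor of macrophages, was the most abundant ligand of the epithelium. It measured 37.5 RPKM in control A, 31.6 in control B and 34.8 in control C, and 52.3, 57.3 and 48.7 RPKM in KO libraries A, B and C. Every KO library lay above every control library. Csf1 was higher by 0.59 ± 0.09 (SE) on the log2 scale, with a limma adjusted p of 9.99e-04. Fold changes here and below are differences of log2(value + 1), a scale that understates the change of low genes.

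Il34 (chromosome 8, 110741829 to 110805924), the alternative ligand of Csf1r, moved the other way. It measured 5.32, 4.27 and 6.28 RPKM in the controls and 0.964, 1.11 and 1.70 RPKM in the libraries labelled Arid1a KO, from 333 to 420 and 63 to 105 reads. Even the highest KO library was below the lowest control. Its difference of -1.48 ± 0.16 (SE) was the largest fall among the members (limma adjusted p = 2.35e-04), and the ratio of mean RPKM was 4.21-fold lower. Because Csf1 rose as Il34 fell, the ratio of Csf1 to Il34 within a library went from 6.66 ± 0.98 in the controls to 44.8 ± 14.1 in the KO libraries (SD, n = 3 each). The lowest KO ratio was 28.7 and the highest control ratio 7.39, and an exact two-sided permutation test gave p = 0.1, the smallest that 3 against 3 allow.

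Csf3 (chromosome 11, 98701263 to 98703629), the cytokine of neutrophil production, was a low transcript. It measured 1.604, 1.31 and 1.70 RPKM in the controls and 4.93, 4.02 and 3.58 RPKM in the libraries labelled Arid1a KO, on 130 to 145 and 282 to 411 reads. The groups were well separated. Csf3 rose by 1.02 ± 0.12 (SE) on the log2 scale (limma adjusted p = 3.27e-04), a 2.72-fold ratio of mean RPKM. When the whole reads were fitted with limma voom, the change was 1.45.

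Csf2 (chromosome 11, 54247271 to 54249667), which sustains granulocytes and macrophages, was about as low. It measured 1.06, 1.67 and 1.35 RPKM in the controls and 1.20, 1.27 and 0.968 RPKM in the libraries labelled Arid1a KO, on 39 to 85 reads. The groups overlapped, and the difference of -0.13 ± 0.12 (SE) did not pass (limma adjusted p = 0.365). The transcripts of both low cytokines are known for AU-rich elements after the stop codon that shorten their life, and the densest 30-base window of ATTTA pentamers (capitals) in each, from GENCODE M21 on GRCm38, is printed here. That of Csf2 is at chr11:54247329-54247358 (minus strand) and that of Csf3 at chr11:98702984-98703013 (plus strand), both within the 3′ UTR.
Csf2: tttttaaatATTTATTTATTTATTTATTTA
Csf3: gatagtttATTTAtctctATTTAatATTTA
Csf2 held 9 pentamers in a 3′ UTR of 317 bases and Csf3 held 6 in 669 bases. As many or more were found in the 3′ UTR of 8.57% and 16.9% of 21022 genes. These shares take no account of 3′ UTR length and so do not measure density. For Kitl, whose 3′ UTR is longer, the share was 2.97%. Among the other ligands, Csf1 held 4 in 2111 bases, Il34 held 1 in 605 bases and Kitl held 14 in 4435 bases, while Csf2ra, Csf2rb and Csf3r held 0. Of these 2 transcripts, those with the densest pentamers among the members, Csf3 was higher and Csf2, on 39 to 85 reads, was not called. The part of the pentamers in either value was not tested.

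Kitl (chromosome 10, 100015630 to 100100416), the ligand of Kit, measured 7.56, 6.66 and 6.65 RPKM in the controls and 4.37, 4.28 and 5.31 RPKM in the libraries labelled Arid1a KO. All 3 KO libraries were below the controls. Kitl fell by 0.50 on the log2 scale (SE 0.09; limma adjusted p = 0.00338). It was the only called member whose change stayed under 1.5-fold, and its smallest value over the alternatives, -0.34, came from rescaling to the same sum.

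The receptors were in part more abundant than their ligands. Csf1r (chromosome 18, 61100598 to 61132149), the macrophage receptor, was the highest member in every epithelium library. It measured 106, 98.8 and 100.3 RPKM in the controls and 178, 162 and 178 RPKM in the libraries labelled Arid1a KO. The groups were far apart, and Csf1r was higher by 0.76 ± 0.07 (SE; limma adjusted p = 1.22e-04). Relative to Csf1 in the same library it was at 2.95 ± 0.16 in the controls and 3.30 ± 0.42 in the KO libraries (SD, n = 3 each; exact two-sided permutation p = 0.4). The 2 groups of ratios overlapped.

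Csf2rb (chromosome 15, 78325752 to 78353847), the shared signalling chain, showed the largest rise of the 10 members. It measured 31.5, 22.6 and 31.1 RPKM in the controls and 92.8, 94.8 and 82.4 RPKM in the libraries labelled Arid1a KO. Control library B was the lowest, and no library of one group came near the other. Csf2rb rose by 1.64 ± 0.13 (SE; limma adjusted p = 7.17e-05), a 3.17-fold ratio of mean RPKM. Its mouse paralog Csf2rb2, which serves the IL-3 receptor, rose from 11.2 ± 2.57 to 45.4 ± 3.57 RPKM (SD, n = 3 each), by 1.95 on the log2 scale (limma adjusted p = 7.39e-05). The 2 genes are similar enough that reads may have been divided between them in counting, so their separate levels are uncertain.

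Csf2ra (chromosome 19, 61223957 to 61228429), the chain that binds Csf2, measured 21.8, 19.8 and 20.97 RPKM in the controls and 35.8, 35.9 and 32.5 RPKM in the libraries labelled Arid1a KO. The groups did not overlap, and Csf2ra rose by 0.71 ± 0.07 (SE; limma adjusted p = 1.50e-04). The beta chain rose further than the alpha chain, since the ratio of Csf2rb to Csf2ra within a library went from 1.36 ± 0.19 to 2.59 ± 0.052 (SD, n = 3 each; exact two-sided permutation p = 0.1). The lowest ratio in the KO libraries was 2.54 and the highest in the controls was 1.48. The level of this ratio, unlike its change, rests on the gene lengths, as described further on. The ligand Csf2 itself, as described above, did not pass.

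Csf3r (chromosome 4, 126024550 to 126044440), the G-CSF receptor of neutrophils and their precursors, measured 23.6, 22.0 and 23.6 RPKM in the controls and 51.7, 54.7 and 41.8 RPKM in the libraries labelled Arid1a KO. Every KO library was above every control. Csf3r rose by 1.06 ± 0.10 (SE; limma adjusted p = 1.50e-04). The ratio of mean RPKM was 2.14-fold, beside 2.72-fold for its ligand Csf3. The ratio of Csf3r to Csf3 was 15.1 ± 1.51 in the controls and 11.9 ± 1.57 in the KO libraries (SD, n = 3 each; exact two-sided permutation p = 0.1).

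Kit (chromosome 5, 75574916 to 75656722), the stem cell factor receptor, was the lowest receptor and the only one that did not pass. It measured 7.78, 6.34 and 6.85 RPKM in the controls and 7.31, 7.38 and 8.60 RPKM in the libraries labelled Arid1a KO. The groups overlapped, with a difference of 0.13 ± 0.09 (SE; limma adjusted p = 0.255). It was called only after rescaling to the same sum, at 0.29 (limma adjusted p = 0.0470). With Kitl lower, the ratio of Kitl to Kit fell from 0.998 ± 0.045 to 0.598 ± 0.019 (SD, n = 3 each; exact two-sided permutation p = 0.1).

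**Figure D2:**
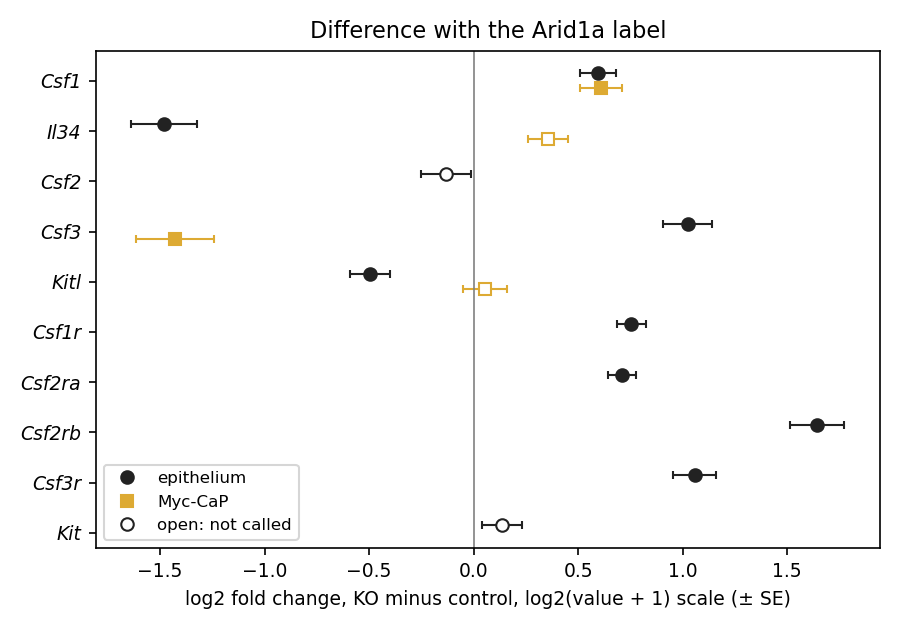
Difference between the Arid1a KO and control libraries for each member tested, as the log2 fold change on the log2(value + 1) scale with its SE, in epithelium (circles) and Myc-CaP cells (squares). Filled symbols passed an adjusted p of 0.05. Csf3 lies at 1.02 in epithelium and -1.43 in Myc-CaP cells, and Csf1 near 0.6 in both.

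Since the receptors are blood cell genes and leukocyte markers moved with the groups, each receptor was also expressed relative to those markers within a library. Per summed leukocyte list, Csf1r was at 10.4% in the controls and 13.8% in the KO libraries, Csf2ra at 2.13% and 2.77%, Csf2rb at 2.90% and 7.19%, and Csf3r at 2.36% and 3.94%, each with no overlap between the groups. Kit was at 0.714% and 0.622%. The log2 differences were 0.41, 0.38, 1.32, 0.74 and -0.20, with exact two-sided permutation p of 0.1 for the first 4 and 0.3 for Kit. Of the summed list, Cd52 alone held 32.7% to 37.6% in the controls and 12.5% to 13.3% in the KO libraries. Without Cd52, a choice made after seeing the data, the differences were -0.02 for Csf1r, -0.04 for Csf2ra, 0.90 for Csf2rb, 0.31 for Csf3r and -0.63 for Kit (exact two-sided permutation p of 0.9, 0.3, 0.1, 0.1 and 0.1). Relative to Ptprc alone they were -0.24, -0.27, 0.67, 0.08 and -0.85 (exact two-sided permutation p of 0.1, 0.1, 0.1, 0.5 and 0.1). Of the 5 receptors, Csf2rb was the one whose KO libraries all lay above the controls with each of these 3 denominators, whereas the direction for Csf1r and Csf2ra depended on the denominator.

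**Figure D3:**
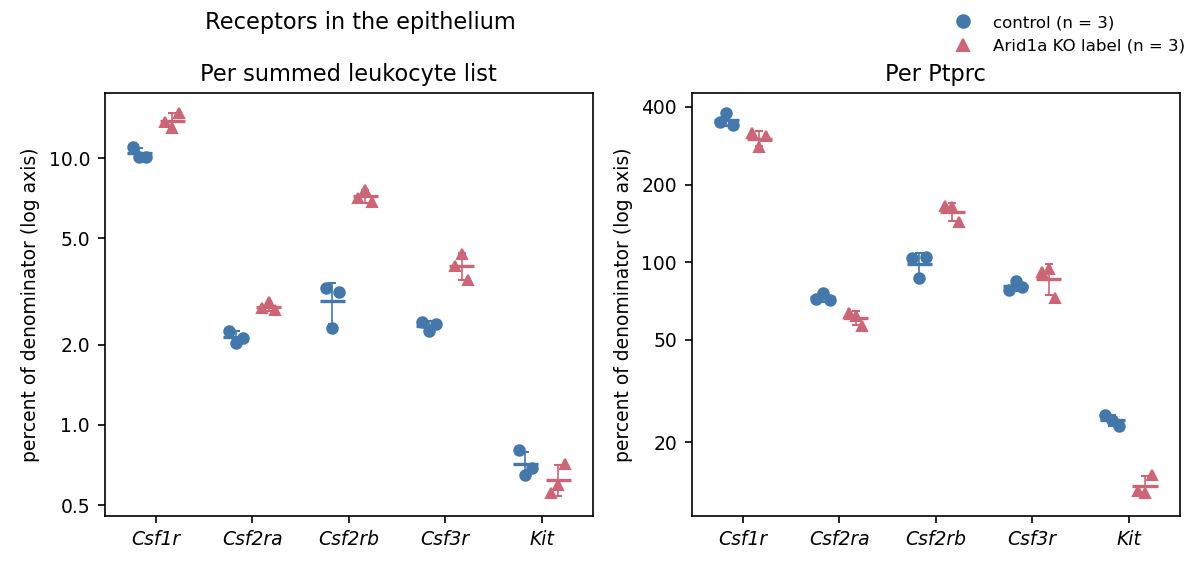
Receptor levels in epithelium as a percentage, on a log axis, of the summed RPKM of 10 leukocyte markers (left) and of Ptprc alone (right), 1 point per library, with mean and SD (n = 3 per group). Csf2rb is higher in the Arid1a KO libraries in both panels, while Csf1r and Csf2ra are higher on the left and lower on the right.

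The markers of the cells that carry each receptor did not move alike. Of 14 macrophage markers, 13 were higher and 0 lower, with a median log2 fold change of 0.86 beside -0.03 over all genes tested, and their summed level was 2733 to 3152 RPKM in the controls and 4994 to 5724 RPKM in the KO libraries. Csf1r was at 3.51% and 3.29% of that sum, with a log2 difference of -0.09 (exact two-sided permutation p = 0.3). Lyz2, the highest macrophage marker, rose from 772 ± 51.1 to 1884 ± 184 RPKM (SD, n = 3 each). The ratio without Lyz2 was not taken. Of 12 neutrophil markers tested, 6 were higher and 1, Camp (-0.47), was lower, beside 27.5% and 29.6% of all genes. In all 7 passed, a share near the 57.1% over all genes. Those higher were Ltf (2.15), Mmp8 (1.38), Cxcr2 (1.19), Clec4d (0.79), Il1r2 (0.73) and Ly6g (0.60). The summed level of the neutrophil list was 483 to 648 RPKM in the controls and 846 to 1118 RPKM in the KO libraries. Csf3r per neutrophil list differed by 0.17 (exact two-sided permutation p = 0.5). With 1 library left out, the difference was -0.0015 without control library B and 0.15 to 0.26 in the other fits. Ltf (lactoferrin) alone held 16.1% to 17.2% of that sum in the controls and 34.1% to 45.2% in the KO libraries. Without Ltf, a choice made after seeing the data, the sum of the rest was 400.2 to 544 RPKM in the controls and 464 to 737 RPKM in the KO libraries, with overlap, and Csf3r differed by 0.64 (exact two-sided permutation p = 0.1). Among the defining neutrophil genes, Ly6g was at 0.409 ± 0.14 and 1.13 ± 0.018 RPKM and S100a8, at 144 ± 38.4 and 177 ± 46.9 RPKM, overlapped between the groups (SD, n = 3 each), as did S100a9, Retnlg, Ngp and Stfa2l1. The granule genes Elane and Mpo were below the level tested. The part of these cells in the receptor values was not tested.

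Mast cell markers went the other way. Of 7 mast cell markers tested, 6 were lower and 1, Hdc, was higher in the libraries labelled Arid1a KO, with a median log2 fold change of -2.02, and their summed level fell from between 342 and 385 RPKM to between 130 and 150 RPKM. The mast cell protease gene Cpa3 went from 32.6 ± 4.06 to 7.60 ± 3.12 RPKM (SD, n = 3 each; limma adjusted p = 2.95e-04). Kit, which mast cells need for survival, did not follow them. Per summed mast cell list it was at 1.90% in the controls and 5.58% in the KO libraries, a log2 difference of 1.55 (exact two-sided permutation p = 0.1). Hdc held 14.9% to 17.4% of that sum in the controls and 41.5% to 64.9% in the KO libraries. Without it, a choice made after seeing the data, the rest summed to 283 to 328 RPKM and 48.1 to 87.6 RPKM, and Kit differed by 2.52 (exact two-sided permutation p = 0.1). The counts for markers of other cells stand against the same 57.1% over all genes. Of 9 luminal epithelial markers, 6 were lower and 0 higher, of 7 basal epithelial markers 3 were higher and 0 lower, of 7 fibroblast markers 4 were lower, of 7 endothelial markers 1 was higher and 1 lower, of 7 smooth muscle markers 2 were higher and 5 lower, and of 8 dendritic cell markers 2 were higher and 1 lower. All 8 seminal vesicle genes were lower, with summed levels of 19464 to 21979 RPKM in the controls and 647 to 1632 RPKM in the KO libraries. With the libraries rescaled to the same sum without the seminal vesicle genes, Il34 differed by -1.40 and Kitl by -0.399. Both were still called (limma adjusted p = 3.30e-04 and 0.0125). The part of the cells behind these markers in the values of Il34 and Kitl, the 2 members that fell, was not tested.

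In order of level per length, the control epithelium ran Csf1r, Csf1, Csf2rb, Csf3r, Csf2ra, Kit, Kitl, Il34, Csf3 and Csf2. The ranges of Csf2rb and Csf3r, of Kit and Kitl, and of Csf3 and Csf2 overlapped, so that these neighbours were not separated. In the libraries labelled Arid1a KO, Csf2rb passed Csf1, and Csf3 passed Il34, which joined Csf2 at the bottom with overlapping ranges. The order rests on the gene lengths behind the deposited RPKM, which the steps between values also gave. For Csf2ra that length was 9466 bases, against 2871 exonic bases in GENCODE M21 and a gene span of 4473 bases, and for Csf3 it was 2737 against 1413 exonic bases. With the GENCODE lengths, Csf2ra would stand at 68.7 RPKM in the controls, next to Csf1r at 77.4 RPKM. Csf2rb would stand below Csf2ra in both groups, at 19.2 RPKM in the controls and at 60.9 against 114.5 RPKM in the KO libraries. Comparisons of a gene with itself between libraries do not depend on its length.

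Transcripts of the proteins that carry the signal onwards were also listed. Over all genes tested, 27.5% passed as higher and 29.6% as lower, with a median log2 fold change of -0.03. Of 22 signal transduction genes, 15 rose and 2 fell with the Arid1a KO label, with a median log2 fold change of 0.47. Syk, a kinase of myeloid cells, rose from 14.5 ± 1.95 to 42.2 ± 2.68 RPKM (SD, n = 3 each), by 1.49 on the log2 scale. Jak2, the kinase attached to Csf2rb and Csf3r, rose from 8.02 ± 0.48 to 17.1 ± 1.97 RPKM, again with SD and n = 3, which is 0.999 on the log2 scale. The Src-family kinase Lyn and the adaptor Gab2 were higher by 0.96 and 0.84. Stat5a, a main transcription factor downstream of Csf2rb, went the other way, from 18.8 ± 0.83 to 9.57 ± 1.45 RPKM (SD, n = 3 each), which is -0.92 on the log2 scale (limma adjusted p = 3.14e-04), while its homolog Stat5b did not pass (0.01). The other lower gene was Mapk3 (-0.77), named here after its value was seen.

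Of 13 feedback inhibitors, 9 were higher and 1 lower, with a median of 0.47, beside the same 27.5% higher and 29.6% lower over all genes. Cbl, the ubiquitin ligase that sends Csf1r and Kit for degradation, rose from 4.41 ± 0.89 to 11.3 ± 0.49 RPKM (SD, n = 3 each), by 1.20. The phosphatases Inpp5d (SHIP1) and Ptpn6 (SHP-1) were higher by 0.995 and 0.64, Socs2 by 0.75, the ERK phosphatase Dusp6 by 0.71 and the adaptor Dok2 by 0.64. The lower gene was Spry2 (-0.61), named after its value was seen. Of the relatives of the family, 10 of 16 were tested, with 2 higher and 3 lower and a median of 0.03. Besides Csf2rb2, the Il34-binding proteoglycan Sdc1 was higher by 0.31, while Pdgfra, Il5 and Flt3l were lower by -0.68, -0.57 and -0.44. Il3 had 0 reads in all 6 libraries.

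Genes that act on the messages or on the proteins of the family were also listed. Their counts stand beside the same 27.5% higher and 29.6% lower over all genes. Of 9 factors that bind AU-rich or stem-loop elements of cytokine mRNA, 6 were higher and 0 lower, with a median of 0.30. Zc3h12a (Regnase-1), a nuclease of cytokine messages, rose from 34.0 ± 1.47 to 74.1 ± 7.41 RPKM (SD, n = 3 each), by 1.10. Zfp36l2, Rc3h1, Zfp36l1 and Khsrp were higher by 0.58, 0.53, 0.46 and 0.30, and Zfp36 (TTP), which binds the ATTTA pentamer, did not pass (-0.01). Of 7 proteases that shed or cleave family members, 5 were higher and 2 lower. Adam8 rose from 24.3 ± 1.95 to 87.3 ± 13.3 RPKM (SD, n = 3 each), by 1.79, and Mmp9, Adam17, which releases Csf1 and cuts Csf1r, and Adam10 were higher by 0.98, 0.64 and 0.56. Mmp2 (-0.61) and the mast cell chymase Cma1 (-2.23) were lower. Of 10 myeloid transcription factors tested, 6 were higher and 2 lower. Runx1, Cebpa, Cebpb and Mitf were higher by 0.87, 0.62, 0.57 and 0.55, and Gata2, a factor of mast cells, and Cebpd were lower by -1.57 and -1.26.

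In each case the 2 genes with the most similar profile over the 6 epithelium libraries were sought among 9019 genes with a mean of at least 5 RPKM, by the root mean square distance of centred log2 values. Near Csf3 lay C5ar1 (the C5a receptor), at a distance of 0.053. Csf3r lay nearest to Zc3h12a and Abtb2 (0.038 and 0.040), Csf1r to Myof and Prkcd (0.022 and 0.028), Csf2ra to Zfand5 and Abr (0.016 and 0.019) and Csf1 to Impact and Plec (0.020 and 0.034). The nearest named gene to Csf2rb was Emilin2 (0.063), after a row given only by an identifier. Il34 lay nearest to Piezo2 and Vipr1 (0.083 and 0.11), Kitl to Zfp282 and Osbpl2 (0.040 and 0.044), Csf2 to Plac8 and C1galt1c1 (0.033 and 0.034) and Kit to Ttc9c and Prdm4 (0.023 and 0.025). With 2 groups of 3, such a distance reflects mainly a like difference between the groups.

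Myc-CaP cells expressed ligands but almost no receptor. Csf2, Csf2ra, Csf2rb and Csf3r had 0 reads in all 4 libraries, which at 3 reads per library allows up to 0.244 to 0.282 TPM for Csf2, 0.0361 to 0.0417 TPM for Csf2ra, 0.0694 to 0.0801 TPM for Csf2rb and 0.0611 to 0.0705 TPM for Csf3r. Csf1r had 0 and 2 reads with the empty vector and 0 and 2 reads after knockout, and Kit had 3 reads in KO library 2 and 0 in the other 3. These limits cover counting error only. Ptprc was likewise at 0, 2, 0 and 0 reads. Of the 9 luminal markers, only Cldn3, Krt8 and Krt19 reached a mean of 0.5 TPM over all 4 libraries, and Epcam, the marker of the epithelial sort, had 0 reads with the empty vector and was at 0.064 ± 0.090 TPM in the knockout libraries (SD, n = 2). Pbsn had 0 reads in all 4 libraries.

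Of the 4 members tested in Myc-CaP cells, 2 passed, Csf1 as higher and Csf3 as lower, against 6.43% of 13974 genes (4.54% higher and 1.89% lower). The same 2 passed the thresholds of the study, as did 6.28% of genes (4.62% higher and 1.66% lower). Csf1 measured 5.57 and 5.48 TPM with the empty vector and 8.89 and 9.01 TPM after knockout, on 187 to 325 reads. The replicates were close to each other and the groups apart, with a difference of 0.61 ± 0.10 (SE; limma adjusted p = 0.0355). Csf3 measured 3.92 and 3.93 TPM with the empty vector and 1.06 and 0.625 TPM after knockout, on 94, 83, 24 and 13 reads. Both KO libraries were far below the empty vector libraries, and the difference was -1.43 ± 0.19 (SE; limma adjusted p = 0.0208), a 4.65-fold ratio of mean TPM. Neither call held with no filter on low values or when any 1 of the 4 libraries was left out, when 0 to 53 genes passed in all. In those fits the change stayed between 0.60 and 0.62 for Csf1 and between -1.60 and -1.26 for Csf3.

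**Figure D4:**
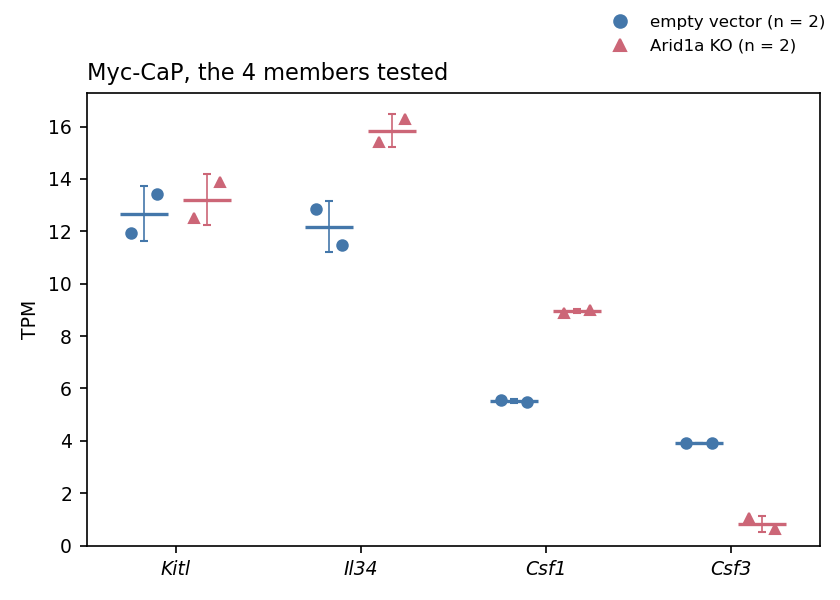
Levels of the 4 members tested in Myc-CaP cells, in TPM, with 1 point per library, the mean as a line and the SD as a bar (n = 2 per group). Csf1 is higher and Csf3 lower in both Arid1a KO libraries, while the Kitl points overlap.

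Il34 and Kitl were the most abundant members in this line. Il34 measured 12.9 and 11.5 TPM with the empty vector and 15.4 and 16.3 TPM after knockout, on 190 to 273 reads. Both KO libraries were higher, but the difference of 0.36 ± 0.10 (SE) did not pass (limma adjusted p = 0.112). Separate ranges were seen for 3 of the 4 members (2 higher and 1 lower) and for 51.5% of all genes (24.9% higher and 26.6% lower). Kitl measured 11.9 and 13.4 TPM with the empty vector and 12.5 and 13.9 TPM after knockout, overlapping between the groups, with a difference of 0.06 ± 0.10 (SE; limma adjusted p = 0.811). In order of level, the empty vector cells ran Kitl, Il34, Csf1 and Csf3, with overlapping ranges for the first 2, and the knockout cells Il34, Kitl, Csf1 and Csf3, each apart from the next. In contrast to the epithelium, Il34 exceeded Csf1, with a ratio of Csf1 to Il34 of 0.455 ± 0.031 with the empty vector and 0.565 ± 0.018 after knockout (SD, n = 2 each; exact two-sided permutation p = 0.333, the smallest that 2 against 2 allow).

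Set side by side, Csf1 was higher with the Arid1a KO label in both systems, by 0.59 in the epithelium and 0.61 in Myc-CaP cells. Csf3 was higher in the first (1.02) and lower in the second (-1.43), and Il34 was lower in the first (-1.48) and not called in the second (0.36). Kitl was lower in the first (-0.50) and not called in the second (0.06). The tables were normalized separately and hold different cells and units, so the differences between the systems were not tested.

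Fewer of the listed genes could be tested in Myc-CaP cells, where 4.54% of all genes passed as higher and 1.89% as lower. Of 19 signal transduction genes tested, 5 were higher and 0 lower, with a median log2 fold change of 0.18 beside -0.01 over all genes tested. They included Jak2 (0.88), Stat5a (0.80) and Gab2 (0.46), of which Stat5a was in the epithelium among the 2 lower genes of the list. Ptpn11 (0.29), named after its value was seen, was also among them. Of 10 feedback inhibitors, 0 were called in either direction. Of 3 family relatives tested, Sdc1 was higher (0.34). Of 9 mRNA decay factors, Zfp36l2 (0.54) and Zfp36 (0.36) were higher and 0 lower. Of 4 proteases, Adam8 (1.12) and Adam10 (0.50) were higher, and of 6 myeloid transcription factors Cebpa (0.37) was higher. By profile over the 4 libraries, the genes nearest to Csf1 were Tnni2 and Chpf2 (0.016 and 0.017), to Csf3 Orm3 and Snord89 (0.067 and 0.11), to Il34 Tmcc2 and Dpm3 (0.018 and 0.023) and to Kitl Nemf and Actr3 (0.0049 and 0.0053), among 9693 genes.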

How the data were processed

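Total RNA was sequenced from EpCAM+ CD45- prostate epithelium of 3 control and 3 Arid1a KO mice and from 2 empty vector and 2 Arid1a KO Myc-CaP libraries. According to its methods, the study aligned paired-end reads to GRCm38/mm10 with TopHat2 and counted them per gene and strand with HTSeq-count, while the submitters' processing notes name HISAT2 and HTSeq. The authors deposited the epithelium as RPKM (reads divided by gene length and by library total). The deposited Myc-CaP values are TPM, in which reads per base are set to one total for all libraries. Gene lengths and annotation are not given in the sources used here. Groups were taken from the genotype label.

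Each gene's values were whole multiples, within 0.01, of what 1 read is worth, for 100% of tested genes in the epithelium and 95.6% in Myc-CaP cells, which gave reads, gene lengths and depth. After a log2(value + 1) transformation, each table was tested on its own, on genes averaging 0.5 or more, with limma 3.58.1 in R 4.3.3 (lmFit and eBayes with a trend, no covariate, two-sided, Benjamini-Hochberg over all genes tested). The floor for a gene with no read is 3 reads per library. Ratios within a library were compared by exact permutation tests. Coordinates are from GENCODE M21. Both tables were used, and no other sample columns were present.

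Named are the 10 members, Arid1a, up to 6 called genes of each pathway list by size of change, and the 2 nearest genes of each member, with markers and exceptions as marked; a few items are not reported here. The members and lists were chosen with earlier results of these data known. Same-letter epithelium libraries did not deviate together (r of 0.041, 0.0094 and -0.057). The 2 Myc-CaP numbers gave r = 0.195. With 2 libraries per group the unlike numbers must then give -0.195, so this value cannot settle a pairing. No block was used. Alternatives were the pseudocount, the filter, the trend, the scaling, the block, each library left out, and limma voom on the recovered reads, the last added after seeing the data.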

Additional observations from a re-analysis of the deposited data

Results flagged for a closer look

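Csf3 and Il34 were singled out because their difference with the Arid1a label ran in opposite directions in the 2 systems. Csf3 had a log2 fold change of 1.02 in the epithelium, where all 3 libraries labelled Arid1a KO were above all 3 controls, and of -1.43 in Myc-CaP cells, where both knockout libraries were below both empty vector libraries. Il34 had a log2 fold change of -1.48 in the epithelium, with all 3 libraries labelled Arid1a KO below the controls, and of 0.36 in Myc-CaP cells, with both knockout libraries above the empty vector libraries. The difference between the systems was not tested for either gene, and the Il34 change in Myc-CaP cells did not pass on its own.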

How the results depend on the processing

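In the epithelium the 8 called members stayed called, in the same direction, under every alternative in which they were tested (Il34 and Csf3 fell below a minimum mean of 5), including limma voom on the recovered reads and each library left out. Past the thresholds of the study, 7 members became 6 without control library B or without KO library B, where Csf1 stood at 0.531 and 0.534, under 1.5-fold. The count of all genes called went from 9294 to 5872 with a minimum mean of 5, because that setting tests fewer genes. The Myc-CaP counts were less firm. Genes called went from 899 to 358 with no filter on low values, 451 with no trend in eBayes and 1531 with voom, and ran from 0 to 53 when 1 library was left out, where 2055 to 2262 genes had an unadjusted limma p under 0.05. The members called went from 2 to 0 with no filter and 0 with any 1 library left out, and to 1 with a minimum mean of 5, where Csf3 was not tested. Members past the thresholds of the study went from 2 to 1 with that minimum and to 1 with quantile normalization. The small Kitl change in Myc-CaP cells ran from -0.022 to 0.134 over the libraries left out, and so has no direction. A replicate block raised the Myc-CaP count to 2771 genes and changed no call of a member in either table. The labels do not say whether same-numbered libraries were prepared together.

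The cause of these changes was not tested. The receptors relative to leukocyte markers depended on the denominator, as given with those results. Relative to Ptprc the log2 differences were -0.24 for Csf1r, -0.27 for Csf2ra, 0.67 for Csf2rb, 0.085 for Csf3r and -0.85 for Kit. Without Cd52, added after seeing the data like the cell type denominators, they were -0.020, -0.045, 0.90, 0.31 and -0.63. Against the markers of their own cell type they were -0.093 for Csf1r, 0.17 for Csf3r and 1.55 for Kit, and without Ltf and Hdc they were 0.64 for Csf3r and 2.52 for Kit. Depth limits the low transcripts: Csf2 rested on 39 to 85 reads in the epithelium, and Csf3 on 13 to 94 reads in Myc-CaP cells.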
